A study of Mus musculus with 36 samples.

Results

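Ubd and Il22ra2 were followed in mesenteric lymph nodes of mice that received soluble lymphotoxin-beta receptor, a decoy that captures the ligands of that receptor. The pair was chosen by its falls in intensity at days 1, 2 and 3 of treatment against saline, so those early values are given as a description and carry no test. Each gene had 1 probe set that names it alone, Ubd on the array here called A and Il22ra2 on array B, which makes 2 probe sets of 45137 and 2 genes of 18193 that a probe set names alone. Neither symbol was listed on any other probe set, alone or with other genes.

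The treated groups had received the soluble receptor and were labelled day 1, 2, 3, 27 or 35. In addition, 1 group had received phosphate-buffered saline (PBS, day 0). How often the receptor was given, and whether up to the day of harvest, is not known here. Each of the 6 groups had 3 samples on array A and 3 on array B, 36 measurements in all. Strain, age, sex, dose, route and any mutant allele are not given in the labels, and no saline group of a later day or control protein group is described there, so treatment and time of harvest cannot be told apart. The labels do not state whether a group's 3 samples were taken from different mice, or whether equally numbered samples on arrays A and B came from 1 RNA. The p-values therefore reflect only the variation among these samples, which may be technical.

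Ubd encodes FAT10, a ubiquitin-like protein built of a pair of ubiquitin-like domains. The enzymes Uba6 and Ube2z attach FAT10 to other proteins, which are then degraded by the proteasome, and its gene is known to be induced by interferon-gamma and TNF. Il22ra2 encodes the IL-22 binding protein, a secreted receptor without a membrane anchor that holds interleukin-22 away from its cell surface receptor of Il22ra1 and Il10rb. In mouse intestinal lymphoid tissue dendritic cells are a known source of this protein.

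In the RefSeq annotation of GRCm38.p6 Ubd spans chr17:37193892-37196101 and Il22ra2 chr10:19622028-19634681. The RefSeq promoter table gives 1 window for Ubd, chr17:37193642-37193941 on the plus strand, with 250 bases before and 50 bases from the annotated start. It is shown because lymphotoxin-beta receptor signals through NF-kB, whose binding sequences have a G-rich and a C-rich end. Capitals mark matches to GGNNTTTNC on either strand, a pattern that fixes only 1 C and so does not require a C-rich end.

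Ubd promoter: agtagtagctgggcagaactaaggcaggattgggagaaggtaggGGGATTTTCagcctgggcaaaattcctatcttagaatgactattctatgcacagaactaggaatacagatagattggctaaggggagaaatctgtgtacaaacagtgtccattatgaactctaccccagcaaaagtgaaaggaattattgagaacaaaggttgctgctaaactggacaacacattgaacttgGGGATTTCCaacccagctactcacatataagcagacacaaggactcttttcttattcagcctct

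The first match begins 206 bases before the start and the second 14 bases before it, both on the strand of the gene, and they do not overlap. The pattern was spelled after the window had been read. Of 32851 windows of the same length listed there, 15.6% hold it on either strand, and 1.8% hold it at 2 or more positions. The window of Madcam1, the vascular addressin, also holds it at 2 positions, and those of Glycam1, Cxcl13 and Mfge8 hold it at none. The window of Ubd contains TATAA from base 12 after the start on, a sequence that 24.9% of windows hold. TTCNNNGAA, the spacing that STAT factors bind, and GAAANNGAA, which interferon regulatory factors bind, had no match there and occur in 8.3% and 8.56% of windows. Each of these patterns was searched on both strands.

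The array medians lay between 273 and 299.5 intensity units on array A and between 149.9 and 165.2 on array B. Of the B cell and T cell markers, 7 of 8 in each list passed the filter on dim values. In the pancreas list 3 of 7 genes and in the intestine list 2 of 7 passed the filter, and 0 of them were called on any day (limma, adjusted p under 0.05). The intensity of the 3′ over the 5′ control probe set of beta-actin was 1.06 to 1.12 at day 27 and 1.11 to 1.14 at day 35 on array A, against 0.98 to 1.04 in PBS samples. On array B it was 1.13 to 1.19 at day 27 and 1.19 to 1.23 at day 35, against 1.03 to 1.05. The ratio of beta-actin was thus higher in every late sample than in every PBS sample. That of Gapdh overlapped PBS at day 35 on array A (0.979 to 1.06 against 0.991 to 1.01) and at days 27 (1.02 to 1.12) and 35 (1.01 to 1.13) on array B, against 1.04 to 1.11 in PBS samples. At day 27 on array A it was 1.02 to 1.08, above the PBS samples. Of the early groups on array A, the Gapdh ratio was 1.04 to 1.08 at day 1 and 1.07 to 1.08 at day 3, also above the PBS samples. On array B the beta-actin ratio was 1.05 to 1.14 at day 3, against 1.03 to 1.05 in PBS samples. The other early ratios overlapped or touched the PBS range. The part of these ratios in the early and late results below was not tested.

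In the 3 PBS samples Ubd read 688, 762.6 and 767.9 intensity units, a mean of 739.5 ± 44.7 (SD, n = 3). At day 1 it read 582.5, 561.1 and 433.2, a mean of 525.6 ± 80.7 (n = 3). At day 2 the samples lay close together at 475.7, 475.6 and 484, and at day 3 they read 424.4, 518.8 and 444.3. Every early sample was below every PBS sample, and sample 3 of day 1 was already as low as the samples of day 3. At day 27 the values were 538.8, 517.1 and 551.7, and at day 35 they were 606.4, 472.4 and 446.5. In all, the 15 treated samples lay below the lowest PBS sample. On array A 31 of 12231 tested probe sets (0.253%) showed such a separation, a share from which nothing is read because the early samples chose the gene.

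Il22ra2 read 415.1, 421.3 and 346.6 intensity units in the PBS samples, a mean of 394.3 ± 41.4 (SD, n = 3). At day 1 it read 267.5, 219.6 and 247.1, at day 2 it read 205.3, 204.4 and 198.7, and at day 3 it read 190.1, 192.3 and 194.2. At day 27 the samples read 201.5, 194.9 and 195.1. The 9 samples of days 2, 3 and 27 thus fell within 190.1 to 205.3, above the median of all probe sets of array B (157.9), and the SD of these groups was between 2.04 and 3.74. At day 35 samples 1 and 3 read 220.2 and 225.6, while sample 2 read 358.5, inside the range of the PBS samples. Of the 15 treated samples 14 were below every PBS sample, and this day 35 sample was the exception. Of 12516 tested probe sets of array B, 147 (1.17%) had all 12 samples of days 1, 2, 3 and 27 below all PBS samples, which again includes the samples that chose the gene. This count leaves out day 35, where the gene overlapped the PBS samples. All 15 treated samples were below for 119 probe sets (0.951%), and Il22ra2 is not among them.

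**Figure D1:**
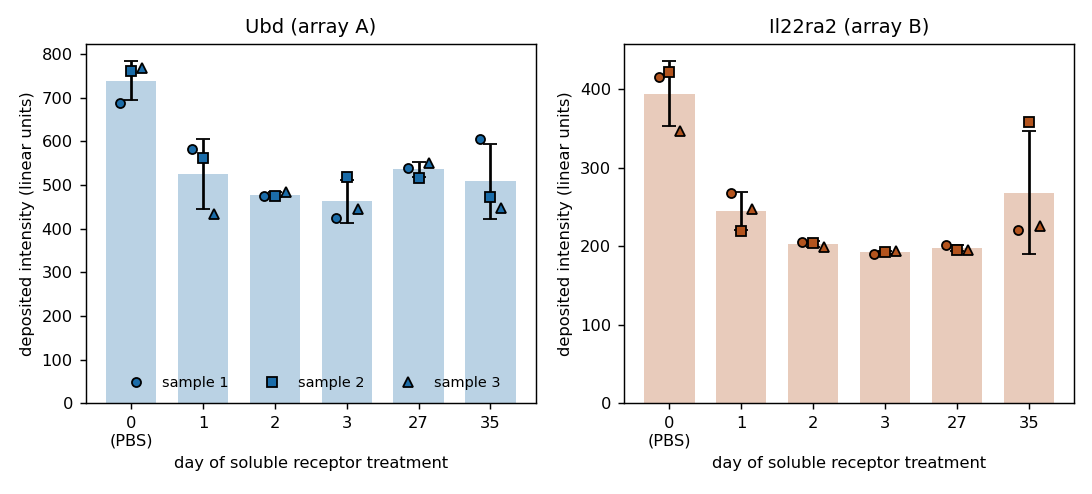
Deposited intensity (linear units) of Ubd on array A and Il22ra2 on array B by day of treatment, with PBS as day 0. Bars show the mean and SD of 3 samples and symbols the single samples; all treated samples of Ubd lie below the PBS samples, and for Il22ra2 sample 2 of day 35 (358.5) reaches the PBS range.

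As a share of the PBS mean, Ubd stood at 71.1%, 64.7% and 62.5% at days 1, 2 and 3, and at 72.5% and 68.7% at days 27 and 35. Il22ra2 stood at 62.1%, 51.4% and 48.7% at days 1, 2 and 3, and at 50% and 68% at days 27 and 35. The fitted log2 changes of Ubd against PBS were -0.50, -0.63 and -0.68 at days 1, 2 and 3 (SE 0.114 each). Those of Il22ra2 were -0.69, -0.95 and -1.03 (SE 0.136 each). Most of the early difference was present after 1 day: from day 1 to day 2 Ubd changed by -0.12 and Il22ra2 by -0.27, and from day 2 to day 3 by -0.05 and -0.08. In a bulk sample fewer cells of a type and less RNA per cell cannot be told apart.

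Ranked by group mean, Ubd was highest in PBS samples, followed by days 27, 1, 35, 2 and 3. PBS and day 27 were 204 units apart, more than the larger SD of 44.7, while the neighbours after that differed by 10.3 to 30 units, each less than the larger of their SDs, and their samples overlapped. For Il22ra2 the order was PBS, day 35, day 1, day 2, day 27 and day 3. PBS and day 35 overlapped through sample 2 of day 35, and day 35 differed from day 1 by 23.4 units, less than the SD of day 35 (78.4). Day 1 and day 2 did not overlap. The means of days 2, 27 and 3 were 5.6 and 5 units apart, slightly more than their SDs.

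At day 27 both genes were lower than in PBS samples. Ubd read 535.9 ± 17.5 against 739.5 ± 44.7 (SD, n = 3 each), a log2 change of -0.46 (SE 0.114, limma adjusted p = 0.0315), and was lower in 3 of 3 samples. On array A 3.18% of tested probe sets were called at this day. Il22ra2 read 197.2 ± 3.74 against 394.3 ± 41.4 (SD, n = 3 each), a log2 change of -0.99 (SE 0.136, limma adjusted p = 0.00947), where 0.328% of array B was called, and it too was lower in 3 of 3 samples. The PBS samples of these contrasts took part in the choice of the genes, while the day 27 samples did not, and the contrast had been seen before. The call of Ubd ended when PBS replicate 2 (adjusted p = 0.102) or 3 (0.122) or day 27 replicate 1 (0.0836), 2 (0.0541) or 3 (0.0744) was left out of the limma fit, and that of Il22ra2 without PBS replicate 2 (0.0948).

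At day 35 Ubd read 508.4 ± 85.9 against 739.5 ± 44.7 in PBS samples (SD, n = 3 each), a log2 change of -0.55 (SE 0.114, limma adjusted p = 0.00647), with 7.36% of array A called. This call held whichever of the 6 arrays was left out (adjusted p up to 0.0432). As at day 27, the PBS samples took part in the choice of both genes, and leaving out single arrays does not remove that. Il22ra2 read 268.1 ± 78.4 against 394.3 ± 41.4 (SD, n = 3 each), a log2 change of -0.59 (SE 0.136, limma adjusted p = 0.0229), with 3.59% of array B called, and was below every PBS sample in 2 of 3 samples. With the replicate number as a block, which paired these samples, the adjusted p was 0.00799 and 1327 probe sets of array B were called in place of 449. Without day 35 replicate 2, the high sample, the change was -0.82 (adjusted p = 0.00128). The call ended without PBS replicate 1 (0.0923) or 2 (0.114) and without day 35 replicate 1 (0.133) or 3 (0.117).

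**Figure D2:**
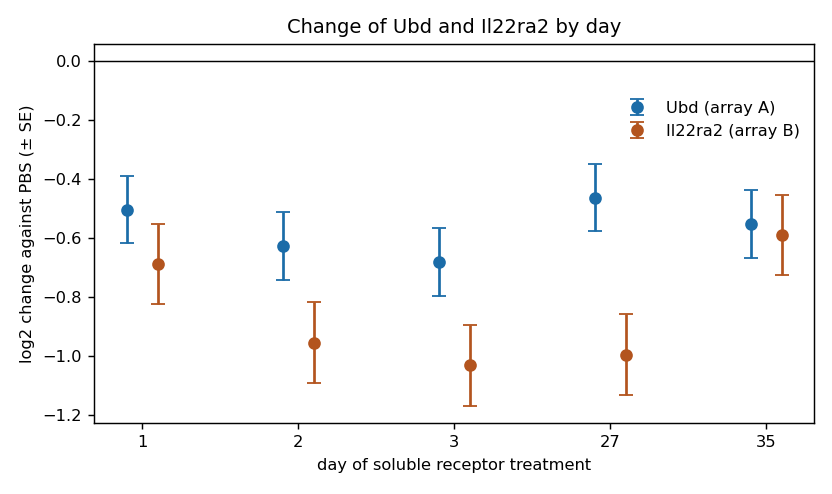
Log2 change of Ubd (array A) and Il22ra2 (array B) against PBS at each day of treatment, with the SE of the limma fit. Ubd stays between -0.68 and -0.46 over the 5 days, and Il22ra2 moves between -1.03 at day 3 and -0.59 at day 35.

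Between the late groups neither gene passed the test, in samples that took no part in the choice of the genes. Ubd was 508.4 ± 85.9 at day 35 and 535.9 ± 17.5 at day 27 (SD, n = 3 each), a log2 difference of -0.09 (95% interval -0.33 to 0.15, limma adjusted p = 0.895). Il22ra2 was 268.1 ± 78.4 at day 35 and 197.2 ± 3.74 at day 27 (SD, n = 3 each). All 3 samples of day 35 were above the 3 of day 27, with a log2 difference of 0.41 (95% interval 0.12 to 0.69, unadjusted p = 0.00789 and adjusted p = 1 in the limma fit). Without day 35 replicate 2 it was 0.18. In this contrast limma called 0.0% of both arrays, with 815 probe sets of array A and 354 of array B at an unadjusted p under 0.05. Sample 2 was the high day 35 sample of Il22ra2 on array B, and sample 1 that of Ubd on array A. The mean of both late groups differed from the mean of the early groups by 0.10 for each gene (SE 0.0735 for Ubd and 0.0878 for Il22ra2), a description since the early samples chose the genes.

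No gene of the machinery that conjugates and degrades FAT10 passed the test on any day. Of 12 genes in this list 9 were tested and 0 called in the limma fit, with 2, 0, 1, 1 and 2 at an unadjusted p under 0.05 at days 1, 2, 3, 27 and 35, and with medians of 0.13 at day 3 and -0.02 at day 35, where the median over all probe sets of array A was 0.02 and 0.03. Ube2z, the conjugating enzyme, stood at 0.19 at day 3 (SE 0.106, limma adjusted p = 0.572) and at 0.19 at day 35. Uba6, the activating enzyme, stood at -0.09 at day 3 and -0.23 at day 35 (SE 0.105, adjusted p = 0.225) on the brightest of its 3 tested probe sets, and at -0.02 and 0.18 on its other probe sets at day 35. Nub1, which binds FAT10 and speeds its breakdown, and Isg15, another interferon-induced modifier, had no probe set naming them alone. Across the lists below, the background was 0.0164%, 0.114% and 0.556% of array A and 0.00799%, 0.024% and 0.0799% of array B called at days 1, 2 and 3. At days 27 and 35 it was 3.18% and 7.36% of array A and 0.328% and 3.59% of array B.

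Among other ubiquitin-like modifiers 12 of 17 genes were tested, and 0 were called by limma at days 1, 2, 3 and 27 (0, 0, 2 and 4 at an unadjusted p under 0.05). At day 35, 4 fell and 8 did not pass: Ubl5, a modifier linked to splicing (-0.56, SE 0.158, limma adjusted p = 0.0366), and the autophagy proteins Map1lc3a (-0.50), Gabarap (-0.25) and Map1lc3b (-0.27). The other 2 probe sets of Map1lc3b stood at -0.15 and 0.00 and were not called. The list's median at day 35 was -0.17, against 0.03 over all probe sets of array A, of which 7.36% were called.

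Of 20 genes known to be induced by interferon-gamma and TNF, as Ubd is, 18 were tested and 0 called by limma at each of days 1, 2 and 3 (2, 3 and 4 at an unadjusted p under 0.05). Their medians were 0.06, 0.10 and 0.08. Psmb9, a subunit of the immunoproteasome, read 1389 ± 84 at day 3 and 1423 ± 75.5 in PBS samples (SD, n = 3 each). It fell at day 27 (-0.27, SE 0.0717, limma adjusted p = 0.0461) and day 35 (-0.34, adjusted p = 0.00743), the only member called at day 27. At day 35 the proteasome activator Psme1 (-0.36) and the signalling inhibitor Socs1 (-0.36) fell as well, and 15 members did not pass. Of array A 3.18% was called at day 27 and 7.36% at day 35. Tnfaip3, the NF-kB target that ends TNF signalling, stood between -0.10 and 0.01 on all 5 days (SE 0.0751).

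The receptor family of Il22ra2 was represented by 7 tested genes of 11. Ifngr2, the signal-starting chain of the interferon-gamma receptor, fell at day 3 (420.5 ± 17.4 against 522.8 ± 8.75 in PBS samples, SD, n = 3 each; -0.31, SE 0.0682, limma adjusted p = 0.0431) and day 27 (-0.30, adjusted p = 0.0202). Its other probe set stood at 0.01 and 0.14 and was not called. The other 6 receptors did not pass on any day. Il10rb, the shared chain of the interleukin-22 and interleukin-10 receptors, read 1046 ± 94.4 at day 3 and 889.6 ± 45.7 in PBS samples (SD, n = 3 each; 0.23, SE 0.0822, limma adjusted p = 0.324). The probe set of Il22ra1, the chain specific to the cell surface receptor, read 53.5 to 74.3 over 18 arrays and that of Il20ra, a receptor chain for interleukins of the same family, 84.1 to 116, both below the array B median of 157.9 on every array, and they were not tested. Il22 itself had no probe set naming it alone, and of 8 ligand genes 2 were tested and 0 called by limma (1 at an unadjusted p under 0.05 at each of days 2 and 27).

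Of the genes that carry or answer the interleukin-22 signal 13 of 19 were tested, and 0 were called by limma at days 1, 2 and 3 (0, 2 and 4 at an unadjusted p under 0.05). Their medians were 0.05, 0.07 and -0.07 at these days. The members ranged from -0.13 to 0.25 at day 1, from -0.13 to 0.54 at day 2 and from -0.33 to 0.54 at day 3. Stat3, the transcription factor the receptor activates, stood between -0.06 and 0.05 over the 5 days on its brightest probe set (SE 0.0892). Socs3, its feedback inhibitor, fell at day 27 (-0.27, SE 0.0639, limma adjusted p = 0.0267), while its other probe sets stood at 0.14 and -0.10 there and 1 of them rose at day 35 (0.44, adjusted p = 0.0189). The metallothioneins Mt1 (-0.66) and Mt2 (-0.35), metal-binding proteins of the acute phase, fell at day 35. The gut antimicrobial genes Reg3b and Reg3g were below the array A median of 286.7 on every array.

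The 6 lists held 9, 12, 18, 7, 2 and 13 tested genes, in the order given above. Over these lists the genes called numbered 0, 0, 1, 3 and 9 at days 1, 2, 3, 27 and 35, all lower. Between day 35 and day 27 the number was 0. Over all tested probe sets 3.18% and 7.36% of array A and 0.328% and 3.59% of array B were called at days 27 and 35. Ifngr2 was the only call at day 3, and no call was made there with any 1 of the 6 array A samples left out, under quantile normalization, with a common median or with only the 2 groups fitted. The day 27 count was 0 without PBS replicate 1, 2 or 3, 1 without day 27 replicate 1 or 3, and 7 without day 27 replicate 2. The day 35 count was 5 without PBS replicate 1, 4 without PBS replicate 2 or 3, and 3 without day 35 replicate 2. Without the 3 arrays of lowest weight in each table, a choice made after seeing the data, the counts were 15 at day 27 and 19 at day 35.

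**Figure D3:**
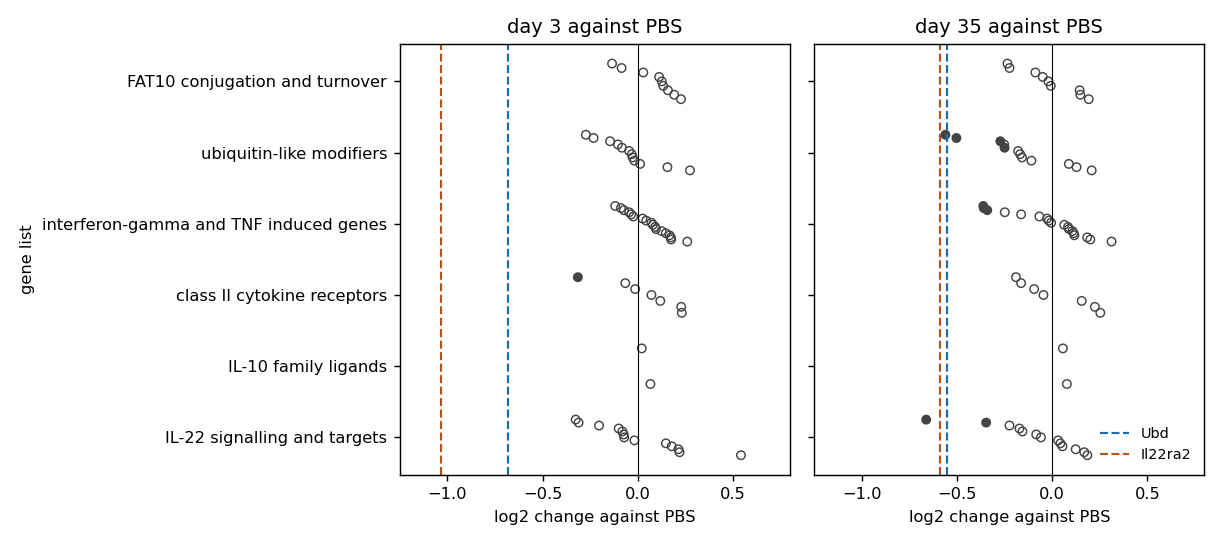
Log2 change of each tested gene of 6 lists at day 3 and at day 35 against PBS, with filled points for limma adjusted p under 0.05. Dashed lines mark Ubd and Il22ra2 for scale, which were chosen by their early falls, so their distance from the lists at day 3 is fixed by that choice.

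Of the tested neighbours of Ubd and Il22ra2 in the genome, named after their values were seen, 0 were called by limma at days 1, 2 and 3. Within 1 Mb of Ubd 13 of 69 protein-coding genes were tested, with a median of 0.06 at day 3. At day 35 Ppp1r11, a phosphatase inhibitor (-0.60, limma adjusted p = 0.00142), and Znrd1, a subunit of RNA polymerase I (-0.60, adjusted p = 0.0052), fell and the ubiquitin ligase Trim26 rose (0.30, adjusted p = 0.0344), 3 of 13 where 7.36% of array A was called. Ppp1r11 (-0.44, limma adjusted p = 0.0163) and Znrd1 (-0.51, adjusted p = 0.0258) had also fallen at day 27, 2 of 13 where 3.18% was called. H2-M3, the nearest tested gene at 74133 bases, stood at 0.12 at day 3 and 0.04 at day 35. Within 1 Mb of Il22ra2 8 of 15 genes were tested and 0 were called on any of the 5 days, with medians between -0.06 and 0.09. Ifngr1, the ligand-binding chain of the interferon-gamma receptor, lies 11799 bases away and stood between -0.09 and -0.06 on all days (SE 0.0896).

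Genes with the pattern most like that of Ubd were sought by Pearson correlation over the 18 arrays of array A, among 7800 other genes. Here and for Il22ra2 below, a gene with several tested probe sets was ranked on the one that correlated best, which favours such genes. The highest were Rad54l, a DNA repair protein (r = 0.721), Nsmf (0.713), the nuclear transport protein Ran on 1 of its 5 probe sets (0.694), Dennd11 (0.685), Eps15l1 on 1 of its 2 probe sets (0.671) and Pdcd4 (0.668). The 4 other probe sets of Ran stood between 0.05 and 0.11 at day 3, against -0.28 on this one. The other probe set of Eps15l1 stood at -0.03 at day 3 and 0.07 at day 35, against -0.12 and -0.13. Those of Nsmf stood at -0.27 (array A) and 0.31 (array B) at day 3, against -0.18. Rad54l averaged 437.7 at day 3, 393.4 at day 35 and 534.6 in PBS samples, and its deviations from the group means followed those of Ubd (r = 0.893). Madcam1 ranked next (0.665), Glycam1, the venular ligand of L-selectin, ranked 16 (0.638) and Mfge8, which follicular dendritic cells secrete, ranked 30 (0.606). For these 3 genes the correlation of deviations within groups lay between -0.167 and 0.016. Cxcl13 ranked 107 (0.542) on 1 of its 2 probe sets and Dsc3 ranked 296 (0.464). That probe set of Cxcl13 stood at -0.89 at day 3, and its brighter one at -0.67. The dendritic cell genes Itgax (-0.328) and Flt3 (-0.48) went the other way, at ranks 7037 and 7577 of 7800. The coefficients describe arrays that share treatment days and scale, and carry no test.

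For Il22ra2 the highest correlations among 6395 other genes of array B were with the sphingosine phosphate receptor S1pr3 (r = 0.845), the lipoprotein receptor Lrp8 (0.844), the organic anion transporter Slco2b1 (0.842), the desmosomal cadherin Dsc3 (0.790), the macrophage receptor Timd4 (0.770) and the lysosomal sulfatase Arsb (0.763). S1pr3 averaged 357.8 at day 3, 422.5 at day 35 and 519 in PBS samples. Its other probe sets stood at -0.21 (array B) and -0.04 (array A) at day 3, against -0.55 on this one. Dsc3 averaged 126.6 at day 3, 276.8 at day 35 and 335 in PBS samples. Its means at days 1, 2 and 3 were below the filter level of array B (157.9). Lrp8 averaged 167.4 in PBS samples and 114.6 to 144 in the treated groups, below that level. It may thus have passed the filter through its PBS samples. Within groups these 6 genes had correlations of 0.361 to 0.682 with Il22ra2. The other probe sets of Slco2b1 stood at -0.28 and 0.17 at day 3, against -0.57, and that of Arsb at -0.14, against -0.26.

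**Figure D4:**
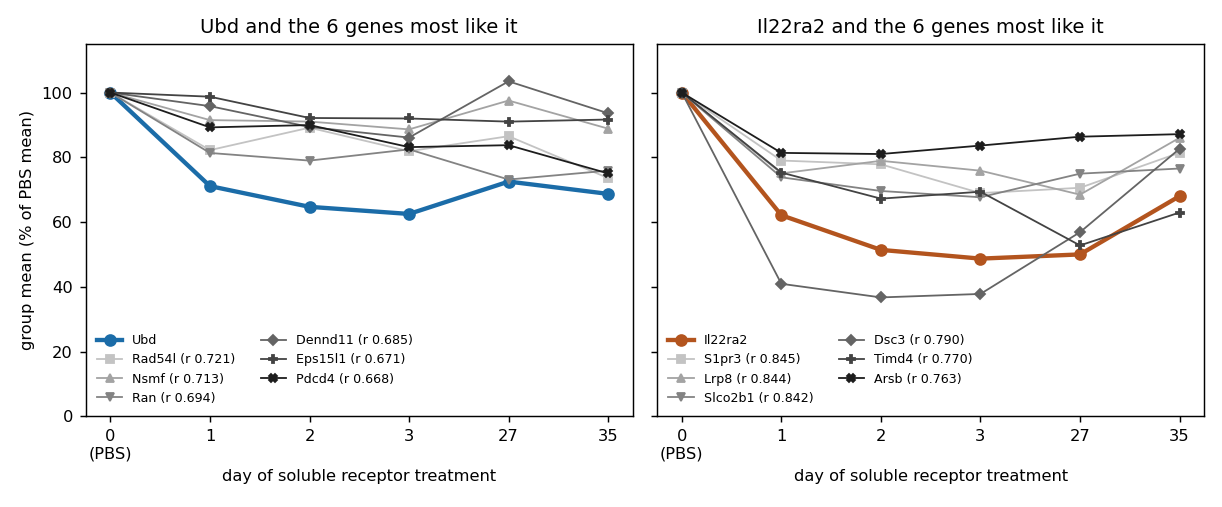
Group mean as a percentage of the PBS mean by day for Ubd and for Il22ra2, each with the 6 genes of the same array that correlated best with it over 18 arrays (r in the legend). At day 3 Ubd stands at 62.5% and Il22ra2 at 48.7%, below the other genes drawn except Dsc3. Both were chosen by their early falls, so nothing is read from this order.

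Markers of cells that could hold these transcripts moved unequally. Dendritic cell genes, 16 tested of 20, had 0 calls at days 1, 2, 3 and 27 in the limma fit (0, 2, 1 and 1 at an unadjusted p under 0.05), and at day 35 Itgax, an integrin of dendritic cells and macrophages, rose (0.26, limma adjusted p = 0.0277). Their summed intensity was 12180 to 12520 at day 3, 11150 to 12410 at day 27 and 11400 to 12930 at day 35, against 11590 to 12120 in PBS samples. High endothelial venule genes, 9 tested of 14, had 2 lower at days 2, 3, 27 and 35, Glycam1 and Madcam1 each time. Their sum on array A (7 genes) was 5944 to 6547 at day 3 and 7239 to 8055 at day 35, against 9387 to 10920 in PBS samples. Glycam1 is the brightest part of this sum, with 1954 ± 303 at day 3 against 5807 ± 727 in PBS samples (SD, n = 3 each), while the list's median change at day 3 was -0.11 and its highest member stood at 0.49. Follicular dendritic cell genes, 9 tested of 14, had 3 lower at days 2, 3 and 27 (Madcam1, Mfge8, Cxcl13) and 2 at day 35 (Madcam1, Cxcl13). Madcam1 is thus counted in both lists. The follicular dendritic cell sum on array A (8 genes) was 10730 to 11370 at day 3 and 13990 to 15720 at day 35, against 14230 to 15540. Mfge8 is a bright part of it, with 1380 ± 66.6 at day 3 against 3449 ± 149 in PBS samples (SD, n = 3 each). The list's median change at day 3 was -0.24 and its highest member stood at 0.05. Type 3 innate lymphoid cell genes, known producers of interleukin-22, had 7 tested of 12 and 0 called by limma on any day (up to 2 at an unadjusted p under 0.05). Of 8 tested macrophage genes Adgre1 was higher at days 3, 27 and 35, and Timd4 was lower at days 27 and 35. Of 7 tested fibroblastic reticular cell genes 1 was higher at day 3 (Il7) and 3 at day 35 (Pdgfra, Col1a1, Col3a1). Of the B cell genes Cd79a was lower at days 27 and 35. Of 5 tested fat cell genes 2 were lower at day 35 (Pck1, Cidec), with a summed intensity of 8477 to 11140 at day 35, against 12750 to 14090. The fat sum was below every PBS sample at day 3 (10940 to 11860) and day 27 (10870 to 12740) too. It overlapped the PBS samples at day 1 (11460 to 13580) and day 2 (11280 to 13920). Beside these marker calls, 3.18% and 7.36% of array A and 0.328% and 3.59% of array B were called at days 27 and 35. The part of these cell types in the levels of Ubd and Il22ra2 was not tested.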

How the data were processed

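Per the labels, total RNA of mesenteric lymph nodes was hybridised to 2 kinds of oligonucleotide array. The authors deposited 1 linear intensity per probe set and array. How it was computed, with which software, background correction or scaling, was not given in the sources used here. Besides 22626 and 22511 gene probe sets each table held 64 controls, which were left untested. Genes were named from the platform annotation where 1 symbol was listed (20380 and 14661 probe sets), updated through gene identifiers to RefSeq. For 1 day 1 sample of array B the source label holds an unrelated phrase, and its group comes from its title.

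A floor at each table's 20th percentile (array A 122.6, array B 76.57) was applied before log2. Probe sets brighter than the median of their table (286.7 and 157.9) on at least 3 of 18 arrays were tested, which left 12231 and 12516. Each table was fitted with limma 3.58.1 in R 4.3.3 (lmFit, eBayes with a trend), with 6 groups and no covariate, and the code was tested on simulated data. P-values were two-sided, Benjamini-Hochberg adjusted within table and contrast, and called at 0.05. Precision is limited by the number of arrays. Each list gene was represented by its brightest tested probe set, from array A where tested there.

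The members, lists and tests were chosen with earlier results of these data known. Genes named are the members, the 6 most correlated genes of each, up to 5 called genes of each pathway list, and 17 genes tied to these pathways or to stromal and dendritic cells. Other called markers and genome neighbours were named after their values were seen. Of the 17, Nub1, Isg15, Il22, Il22ra1 and Il20ra had no tested probe set.

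Equally numbered samples deviated together (correlations of 0.233, 0.338 and 0.494) for day 35 and PBS on array B, so the fit with the replicate number as a block is given there. For the other contrasts with a test of the members at least 1 correlation was under 0.1. Alternatives covered scaling, floor, filter, variance model, array weights, block, samples fitted and single arrays left out.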

Additional observations from a re-analysis of the deposited data

How the results depend on the processing

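The log2 changes of Ubd and Il22ra2 kept their sign under all 10 planned settings and without the 3 arrays of lowest weight in each table, a choice made after seeing the data. When dim probe sets were kept, the calls of Ubd at day 27 (-0.46, adjusted p = 0.0839) and of Il22ra2 at day 35 (-0.59, adjusted p = 0.0592) ended; more probe sets are tested there. No other of these settings ended a call of either gene at days 27 and 35. Leaving out single arrays, the change of Ubd ran from -0.51 to -0.44 at day 27 and from -0.69 to -0.46 at day 35, and that of Il22ra2 from -1.08 to -0.94 at day 27 and from -0.82 to -0.47 at day 35. Between day 35 and day 27 it ran from -0.22 to -0.00 for Ubd and from 0.18 to 0.53 for Il22ra2. With the replicate block the adjusted p of Ubd was 0.035 at day 27 and 0.00799 at day 35, that of Il22ra2 was 0.000855 and 0.00799, and no call of the members changed; the block moved the count of array B at day 27 to 220 from 41.

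Counts of probe sets depended more on the settings, by causes not tested. On array A 113 to 2485 were called at day 27 (389 as reported) and 691 to 3046 at day 35 (900), with the highest under array weights and, at day 27, the lowest with only the 2 groups fitted. On array B 16 to 345 were called at day 27 (41) and 316 to 1432 at day 35 (449). At days 1, 2 and 3 array weights gave 77, 536 and 377 on array A (2, 14 and 68) and 152, 2298 and 45 on array B (1, 3 and 10), and between day 35 and day 27 they gave 464 on array A (0); the fit of the weights warned that it had not converged. With single arrays left out, array A had 137 to 714 calls at day 27 and 333 to 763 at day 35, and array B had 0 to 33 and 125 to 239. At days 1, 2 and 3 array A then had 0, 4 to 7 and 16 to 31, and array B had 1 to 4, 1 to 2 and 2 to 5. Pathway list genes called ran from 0 to 3 at day 3 (1), from 1 to 17 at day 27 (3) and from 6 to 23 at day 35 (9). The intensities carry no detection call, so how far Il22ra2 at days 2, 3 and 27 stands above its own probe background is unknown.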
